A study of Mus musculus with 8 samples.

Results

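Gamma-delta T cells of mouse dorsal skin were described here from 8 single-cell RNA libraries, 4 from skin injected subcutaneously with PBMCsec and 4 from skin injected with vehicle. A barcode was kept with 500 to 4000 detected genes, at most 20000 UMIs (unique molecular identifiers, each standing for 1 captured transcript) and at most 10% mitochondrial UMIs. A kept cell was a gamma-delta T cell when it held at least 1 UMI of Cd3d, Cd3e or Cd3g, at least 1 UMI of Trdc or at least 2 of Tcrg-C1, and no UMI of Trac. The rule found 274 cells among 1231 cells with a CD3 UMI, 11118 kept cells and 26231 barcodes. PBMCsec is the secretome of irradiated human peripheral blood mononuclear cells. The labels give female BALB/c mice of 14 to 16 weeks in both groups, and the same tissue. They do not name the control solution, the time after injection or the animal behind each library, nor whether the skin was scarred. The study describes injection into scars of healed wounds, and which tissue these libraries hold was not settled here. The p-values below measure the spread between libraries, which may be technical. The libraries held 14753926 to 37880651 UMIs.

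Gamma-delta T cells carry an antigen receptor built from a gamma and a delta chain in place of the alpha and beta chains of conventional T cells. Mouse skin holds a population in the epidermis, the dendritic epidermal T cells, whose receptor joins Vgamma5 with Vdelta1 and which touch keratinocytes with long processes and carry cytotoxic granules. A second population lies in the dermis and makes interleukin 17 in response to IL-23, with IL-7 as a survival signal. Conventional CD4 and CD8 T cells and regulatory T cells are the alpha-beta T cells of the same tissue.

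PBMCsec libraries 1 to 4 gave 26, 21, 79 and 27 gamma-delta T cells. Vehicle libraries 1 to 4 gave 4, 14, 79 and 24. Libraries 3 of both treatments therefore supplied 158 of the cells, and vehicle 1 was too small for any test of genes. Cells of libraries numbered 1 and 2 were deeper, with a median of 5311 and 6173 UMIs per gamma-delta T cell after PBMCsec and 4181.5 and 4505.5 after vehicle. Those numbered 3 and 4 had medians of 3287 and 3681 after PBMCsec and 2626 and 2859.5 after vehicle. No pair of libraries shared more than 4 barcodes of kept cells. No doublet caller was used, and 5 of the cells held over 1% of UMIs from keratinocyte, fibroblast and myeloid markers.

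The cells were selected on the UMIs of these marker genes, whose levels are given as a description. Trdc, the constant region of the delta chain (chr14:54142851-54148868, plus strand, GRCm38), was found in 260 of the 274 cells (94.9%). Of these cells, 194 also held Tcrg-C1, a constant region of the gamma chain (chr13:19214103-19217024, plus strand). The other 14 cells entered with at least 2 UMIs of Tcrg-C1. In summed counts of these cells, Trdc lay between 1103 and 3213 CPM (UMIs of a gene scaled to a total of 1000000), and Cd3g, a signalling chain of the receptor complex, between 1654 and 6425 CPM. Just inside the rule stood 13 cells with 1 UMI of Trdc and at most 1 of Tcrg-C1, and 9 with no Trdc and 2 UMIs of Tcrg-C1. Just outside stood 7 cells with 1 UMI of Tcrg-C1 and no Trdc, 42 without a CD3 UMI and 54 that met the rule but for 1 UMI of Trac. Blk, a Src-family kinase, was found in 81.5% of the 54 cells with 1 Trac UMI, against 44.5% of the cells inside the rule. Fcer1g, the signalling gamma chain of Fc and natural killer receptors, was found in 57.1% of the 42 cells without a CD3 UMI, against 34.7% inside. The same 42 cells held Trdv4 in 4.76%, Tcrg-C1 in 2.38% and Blk in 2.38%, against 25.5%, 75.9% and 44.5% inside.

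The comparison cells were 619 alpha-beta T cells, with a CD3 UMI, at least 1 UMI of Trac, no Trdc and at most 1 UMI of Tcrg-C1. Transcripts of the beta chain were found in both classes. Trbc1 was found in 64.2% of gamma-delta and 54.1% of alpha-beta T cells, and Trbc2 in 75.2% and 81.1%. In keratinocyte-rich cells, which should lack both genes, Trbc1 was found in 1.97% and Trbc2 in 27.6%, at a median of 9151 UMIs a cell against 3384.5 in gamma-delta T cells. The shares of both genes in gamma-delta T cells lay above these background values. Other alpha-beta genes did separate the classes. Cd4 was found in 1.09% against 54.1%, Cd8a in 0.365% against 10.8%, and Ctla4, an inhibitory receptor of activated and regulatory T cells, in 0 of 274 against 32.1%. The 0 of 274 allows a share of up to 1.09% of cells with a Ctla4 UMI and does not limit the share that expresses it. This limit, like the intervals below, covers counting error only.

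The share of gamma-delta T cells among kept cells was 2.41%, 3.97%, 3.12% and 1.69% in PBMCsec libraries 1 to 4. It was 1.26%, 3.42%, 2.72% and 1.38% in vehicle libraries 1 to 4. The groups overlapped. Means were 2.80% ± 0.977 with PBMCsec and 2.19% ± 1.05 with vehicle (SD, n = 4 each), which differed by 0.601 percentage points (two-sided exact permutation test over 70 labellings, p = 0.429, adjusted over 4 shares p = 0.571). The smallest p this test allows is 0.0286. The difference in the share of gamma-delta T cells among kept cells was 0.289 points without vehicle 1, 0.210 without PBMCsec 2 and 0.328 without vehicle 4. It was 0.971 without PBMCsec 4 and 1.01 without vehicle 2. With the mitochondrial limit at 5%, this share was 1.85%, 4.79%, 2.18% and 2.28% after PBMCsec. After vehicle it was 0.662%, 2.40%, 2.59% and 1.11%. With marker-rich cells removed, which also lowered the number of kept cells, it was 4.92%, 7.5%, 7.85% and 3.51% after PBMCsec. After vehicle it was then 2.38%, 6.06%, 6.57% and 3.41%. The groups overlapped under both settings. Among cells with a CD3 UMI, the share was 16.5%, 16.7%, 27.1% and 17.9% after PBMCsec and 5%, 16.3%, 36.1% and 20% after vehicle. The 5% in vehicle 1 rested on 4 cells. The groups again overlapped (difference 0.200 points, exact permutation p = 0.943, adjusted p = 0.943), and the share was 5.92 points higher after PBMCsec in libraries 1 and 2 and -5.52 points apart in libraries 3 and 4.

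**Figure D1:**
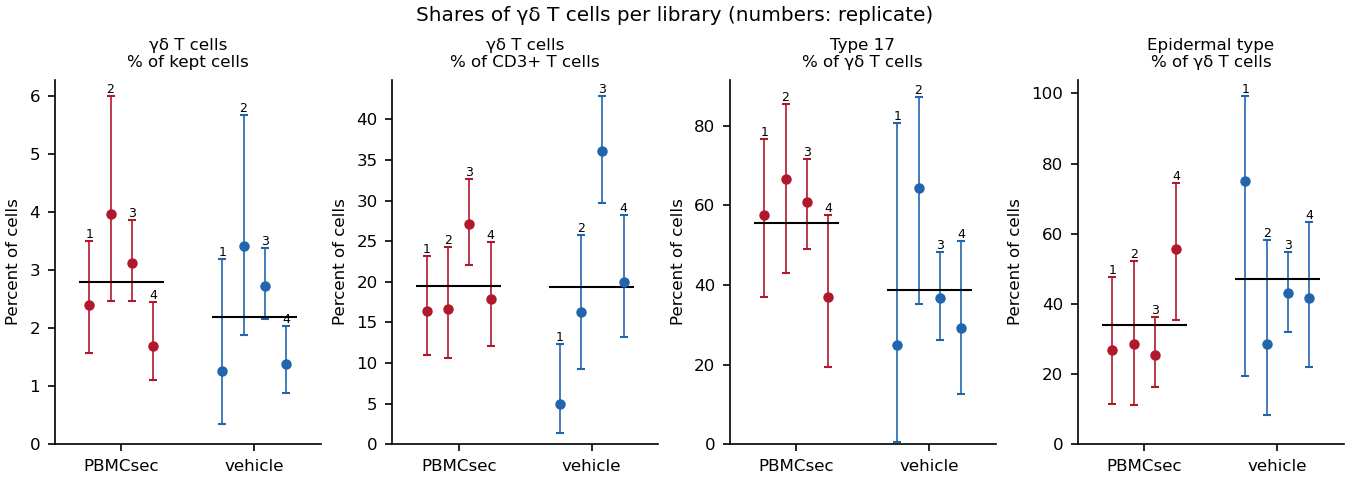
Shares of gamma-delta T cells per library, in percent, after PBMCsec and after vehicle, with each point a library, bars its 95% Clopper-Pearson interval and horizontal lines the group means. The libraries of the treatments overlapped in every share, and the exact permutation tests gave p between 0.171 and 0.943.

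The cells fell into populations with separate transcripts. A cell was assigned to type 17 when the summed UMIs of 8 genes (among them Cd163l1, Il23r, Il17a, Il17f, Blk, Tcrg-V6 and Sox13) reached 2 and were at least 3 times those of 6 genes of epidermal-type cells (Tcrg-V5, Xcl1, Gzmb, Gzmc, Cd7 and Nkg7), and to the epidermal type by the reverse. These gates took 133 type 17 cells and 99 epidermal-type cells and left 42 in neither. Near the gates were 24 type 17 and 2 epidermal-type cells with 2 UMIs of their list. Of the unassigned cells, 15 held no UMI of either list, 14 held 1, and 13 held UMIs of both lists. The gate genes chose these cells and are not results, and what follows is a description with no test.

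Transcripts of the populations were compared in single cells. Blk was found in 122 cells and Fcer1g in 95, and no cell held both. The gene 5830411N06Rik, a scavenger receptor family gene that lies next to Cd163l1 (chr7:140247284-140300736 and chr7:140218267-140231145, both plus strand), was found in 159 cells and Nkg7, a granule protein of cytotoxic cells, in 98, with 1 cell holding both. Il7r, the receptor of the survival cytokine IL-7, was found in 167 cells, of which 3 also held Fcer1g. Of the 18 cells with Il17a, 2 held Prf1, the pore protein perforin. Neither Fcer1g nor 5830411N06Rik nor Il7r was used by the gates. 5830411N06Rik was also found in 36 of the 42 unassigned cells (85.7%) and Il7r in 85.7%, against 2.38% for Fcer1g, so most unassigned cells held transcripts found in type 17 cells. In keratinocyte-rich cells, as a measure of free RNA, Fcer1g was found in 0.516%, 5830411N06Rik in 0.202% and Blk in 0%.

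Variable regions of the receptor were compared next. Trdv4, which encodes Vdelta1 of the mouse (chr14:54074905-54075515, plus strand), was found in 64.6% of epidermal-type cells, 3.76% of type 17 cells and no alpha-beta T cell. Of the 70 gamma-delta T cells with Trdv4, 64 also held Fcer1g and 4 held Blk. Tcrg-V5 was found in 25.3% of epidermal-type cells and in no type 17 cell, and all 25 cells with it held Fcer1g, but it is a gate gene of the epidermal type, so its split between the gates is no result. Tcrg-V4 was found in 17 cells, 9 of them with Blk and 1 with Fcer1g. Tcrg-V6, a V segment of fetal-derived type 17 cells, was found in 0.752% of type 17 cells and 3.03% of epidermal-type cells. Of the 5 cells with it, 3 held Fcer1g and 1 held Blk. It is a gate gene of type 17 and had 5 UMIs in all, too few to say which population it marks. Libraries of the 3' end read the constant region best, and a V segment missed in a cell is no evidence that the cell lacks it.

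**Figure D2:**
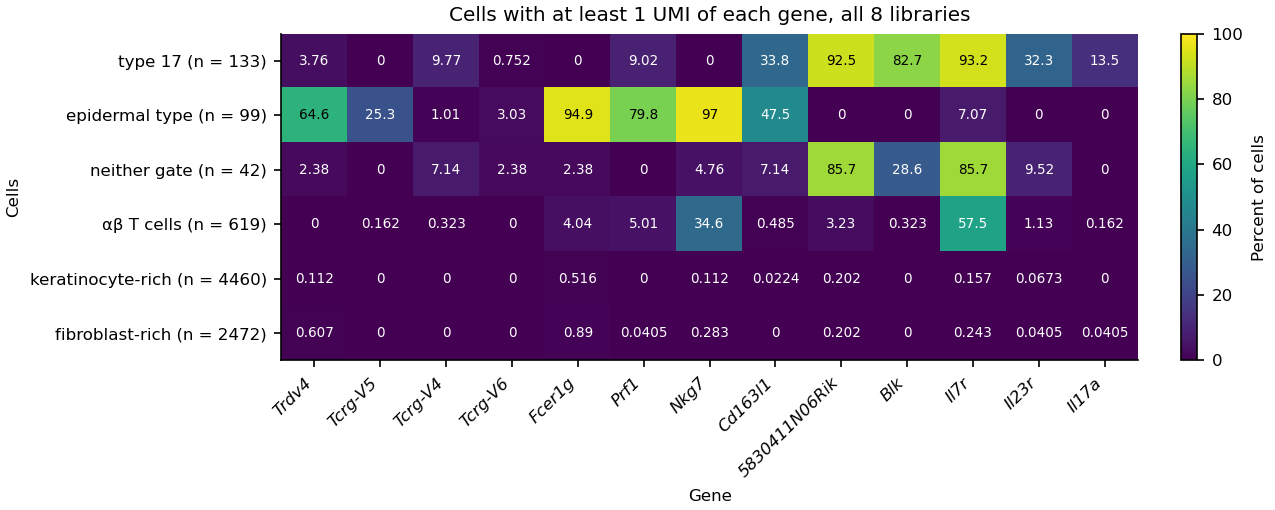
Percent of cells with at least 1 UMI of each gene (columns) in type 17, epidermal-type and unassigned gamma-delta T cells, alpha-beta T cells and the keratinocyte-rich and fibroblast-rich cells (rows), with the colour scale in percent. Fcer1g stood at 94.9% of epidermal-type and 0% of type 17 cells, and 5830411N06Rik at 92.5% of type 17 and 0% of epidermal-type cells.

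Levels per library were compared in the 6 libraries with at least 5 cells of both gates, PBMCsec 1 to 4 and vehicle 3 and 4, and values are given in that order. Of 5640 genes with at least 20 UMIs, 357 (6.33%) were higher in type 17 cells in every library and 521 (9.24%) were lower in every library. These shares describe the same cells that the gates divided and are the background for the counts of lists below. The lists were chosen with earlier results of these data known, so their counts are a description too.

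Type 17 cells held 5830411N06Rik at 1194, 1028, 1452, 1568, 1259 and 1688 CPM, and epidermal-type cells held none in any library. Over 619 UMIs this was at least 162-fold higher, with the floor of 3 counts taken over the group. Il7r stood at 1233, 1004, 1501, 871, 1379 and 794 CPM in type 17 cells against 0, 222, 0, 52.0, 9.10 and 0 in epidermal-type cells. The populations did not overlap for either gene, and the Il7r of epidermal-type cells came mainly from PBMCsec 2. Maf, a transcription factor of interleukin 17-producing gamma-delta T cells, stood at 938, 726, 863, 821, 599.7 and 745 CPM against 35.0, 27.7, 0, 17.3, 9.10 and 0 (mean log2 difference 4.27, SD 0.48 over 6 libraries). Tmem176a, a cation channel gene of type 17 lymphocytes, stood at 668, 798, 772, 1892, 1068 and 844 CPM, and at 27.3 to 136 CPM in epidermal-type cells. Its neighbour Tmem176b had a mean log2 difference of 3.36. Actn2, a muscle-type alpha-actinin, was found at 207 to 398 CPM in type 17 cells and at 0 in every library of epidermal-type cells, at least 31.0-fold apart.

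Some receptors and transcription factors outside the gates were higher in type 17 cells as well. Rora, a nuclear receptor of innate-like and type 17 lymphocytes, had a mean log2 difference of 3.30, Il18r1, a chain of the IL-18 receptor, 3.09, and Ramp1, a co-receptor for the neuropeptide CGRP, 3.11. Ccr6, the receptor of CCL20, stood at 99.3 to 249 CPM in type 17 cells and at 0 to 9.10 CPM in epidermal-type cells. Ccr2, a receptor for inflammatory chemokines, had a mean log2 difference of 2.88. Zbtb16, the PLZF factor of innate-like T cells, had 2.39 and Il17re, a chain of the IL-17C receptor, 2.35. Of the 20 measured genes in a list of other type 17 genes, 14 were higher in type 17 cells in every library and 1 was lower in every library. Of 11 transcription factors outside the gates, 5 were higher and 1 was lower in every library, which was Runx3, a factor of cytotoxic T cells (mean log2 difference -1.61). Of 13 cytokine receptors outside the gates, 5 were higher and 2 lower, which were Il2rb (-2.78) and Il2rg (-0.79), chains of the IL-2 and IL-15 receptors.

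Interleukin 17 itself came from few cells. Il17a was found in 18 of the 133 type 17 cells (13.5%) and Il17f in 10, with 5 cells holding both. The Il17a UMIs over all gamma-delta T cells were 88, 1, 137 and 0 in PBMCsec libraries 1 to 4 and 0, 112, 6 and 4 in vehicle libraries 1 to 4. In vehicle 2, 104 of the 112 came from 1 cell, and in PBMCsec 1, 66 of the 88 came from 1 cell. In PBMCsec 3, 59 of the 137 came from 1 cell and the rest from 4 others. Few cells thus held the Il17a UMIs of each library. Il17a is a gate gene, so its absence from epidermal-type cells is no result.

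Epidermal-type cells held Fcer1g (chr1:171229572-171234365, minus strand) at 1558, 2662, 2364, 2565, 1902 and 2824 CPM, against 0 in every library of type 17 cells. Over 818 UMIs it was at least 347-fold higher. Ctla2a, a cysteine protease inhibitor of activated T cells, stood at 3938 to 6213 CPM against 0 to 218 (mean log2 difference -6.00, SD 1.51, type 17 minus epidermal). Trat1, an adaptor that binds the receptor complex, stood at 735 to 1894 CPM against 0, at least 204-fold. Prf1 (chr10:61297833-61304680, plus strand), stood at 471 to 1085 CPM against 12.1 to 49.8 (mean log2 difference -3.82). These genes separated the populations in every library.

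Further genes among the largest differences were higher in epidermal-type cells. Fermt2, the integrin activator kindlin-2, stood at 280.1 to 1317 CPM against 0 to 38.5, and Avil, the actin-binding protein advillin, at 385 to 693 CPM against 0. Gem, a small GTP-binding protein, had a mean log2 difference of -4.74. Of 14 measured natural killer receptors, 8 were higher in epidermal-type cells in every library and none in type 17 cells, and Cd244, the 2B4 receptor, was at least 62.3-fold and Cd160 at least 25.4-fold higher. Of 8 cytotoxic genes, 3 belong to the gates, and of the other 5, Prf1 and Ctsw, a cathepsin of cytotoxic cells (mean log2 difference -3.02), were higher in epidermal-type cells in every library. Of 15 other genes of epidermal T cells, 8 were higher in them in every library. The list also held Jaml, an adhesion molecule, which was higher in type 17 cells in every library (mean log2 difference 0.84, SD 0.50).

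Some genes of natural killer and cytotoxic cells were uneven among the epidermal-type cells. Gzma, a granule protease, stood at 2013 and 749 CPM in PBMCsec 1 and 2 and at 0, 0, 0 and 22.6 CPM in the other libraries. Ncr1, the NKp46 receptor of natural killer cells, stood at 298, 0, 0, 0, 27.3 and 67.8 CPM, and Eomes, a T-box factor of natural killer and memory cells, at 35.0, 416, 0, 0, 0 and 136 CPM. Few cells held these UMIs: over all gamma-delta T cells, 3 held the 143 of Gzma, 4 the 23 of Ncr1 and 3 the 23 of Eomes. Trdc was lowest in PBMCsec 1, at 1821 CPM against 3217 to 5134 in the other libraries. Whether other cells entered the gate in these libraries was not tested.

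**Figure D3:**
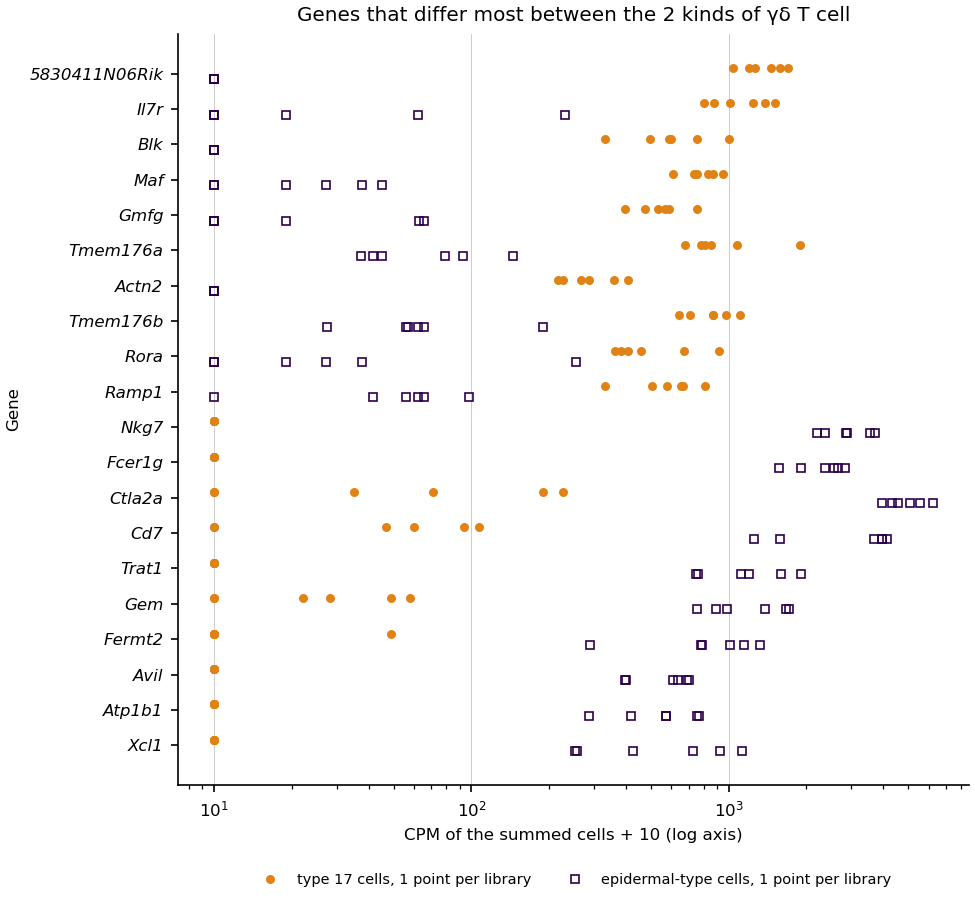
CPM + 10 on a log axis for each gene in type 17 and epidermal-type cells of the 6 libraries, each point a library. Fcer1g and Trat1 were at 0 in all type 17 sums, and 5830411N06Rik and Actn2 at 0 in all epidermal-type sums.

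Itgae, the integrin chain CD103 that holds T cells at epithelial E-cadherin, did not separate the populations, at 324 to 672 CPM in type 17 and 368 to 892 CPM in epidermal-type cells. Cd163l1, although a gate gene for type 17, stood at 133 to 597 CPM in type 17 cells and 105 to 360 CPM in epidermal-type cells and was found in 33.8% and 47.5% of them. Trdc and Cd3g were higher in epidermal-type cells, Trdc at 1821 to 5134 CPM against 1209 to 1463 and Cd3g at 3396 to 9152 CPM against 1413 to 2838. Both served the rule that chose the cells.

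Promoters are shown for 3 genes, Il17a and Xcl1 as gate genes of the populations and Trat1 as a gene outside the gates that was at 0 in type 17 cells. Il17a was at 0 in some libraries, as given above. Each is the 250 bases before the RefSeq start on GRCm38.p6, written 5′ to 3′ on the strand of the gene. Il17a lies at chr1:20730655-20730904 (plus strand), Xcl1, a chemokine of cytotoxic lymphocytes, at chr1:164935523-164935772 (minus strand) and Trat1 at chr16:48772063-48772312 (minus strand). Capitals mark, on either strand, the nuclear receptor half-site AGGTCA, the RUNX core TGTGGT and the T-box core GTGTGA.
Il17a: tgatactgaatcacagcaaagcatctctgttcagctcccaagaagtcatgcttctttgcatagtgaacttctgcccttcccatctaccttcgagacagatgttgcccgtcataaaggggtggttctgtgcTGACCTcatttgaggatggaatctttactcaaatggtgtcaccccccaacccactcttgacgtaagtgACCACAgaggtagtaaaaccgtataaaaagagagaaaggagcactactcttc
Xcl1: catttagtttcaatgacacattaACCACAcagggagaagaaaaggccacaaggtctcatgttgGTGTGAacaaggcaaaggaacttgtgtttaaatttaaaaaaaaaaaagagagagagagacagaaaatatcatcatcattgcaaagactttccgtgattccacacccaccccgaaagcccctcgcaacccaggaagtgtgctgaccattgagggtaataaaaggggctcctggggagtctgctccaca
Trat1: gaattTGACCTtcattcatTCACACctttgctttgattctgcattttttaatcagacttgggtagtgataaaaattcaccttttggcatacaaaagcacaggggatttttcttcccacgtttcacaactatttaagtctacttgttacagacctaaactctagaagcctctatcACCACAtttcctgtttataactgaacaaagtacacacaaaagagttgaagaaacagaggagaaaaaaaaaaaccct

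The Il17a promoter held a nuclear receptor half-site from 120 to 115 bases before the start and a RUNX core from 52 to 47, both on the opposite strand. The Xcl1 promoter held a RUNX core from 227 to 222 and a T-box core from 187 to 182, and that of Trat1 held all 3 motifs. Promoters were found for 23 of 30 genes, the gate genes with the 10 largest differences in each direction. The nuclear receptor half-site was in 5 of 13 type 17 genes (38.5%) and 2 of 10 epidermal-type genes (20%), against 15.8% of 27025 genes. The RUNX core was in 4 (30.8%) and 6 (60%) of them, against 15.9%, and the T-box core in 3 (23.1%) and 4 (40%), against 13.9%. The T-box matches of Tmem176a and Tmem176b, neighbours on opposite strands, are the same stretch of DNA counted for both. With so few genes these shares are a description, and a match of letters is neither a bound site nor a cause.

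Type 17 cells made up 57.7%, 66.7%, 60.8% and 37.0% of gamma-delta T cells in PBMCsec libraries 1 to 4. They made up 25%, 64.3%, 36.7% and 29.2% in vehicle libraries 1 to 4, where the first rests on 4 cells. The means were 55.5% ± 12.9 (SD, n = 4) and 38.8% ± 17.7 (SD, n = 4), a difference of 16.7 points that did not pass the exact permutation test (p = 0.171, adjusted p = 0.571), with 17.5 points in libraries 1 and 2 and 16.0 in libraries 3 and 4. It was 3.30 points with cells thinned to 1000 UMIs, 8.69 with a gate of 3 UMIs and 25.2 without vehicle 2. With the mitochondrial limit at 5%, which removed 137 of the 274 cells, the difference in the share of type 17 cells among gamma-delta T cells was -4.00 points, which rested on 1 cell left in vehicle 1, and 11.8 points with vehicle 1 left out as well, an alternative chosen after seeing the data. Epidermal-type cells made up 26.9%, 28.6%, 25.3% and 55.6% after PBMCsec and 75%, 28.6%, 43.0% and 41.7% after vehicle. Their means were 34.1% ± 14.4 and 47.1% ± 19.7 (SD, n = 4 each), a difference of -13.0 points (exact permutation p = 0.314, adjusted p = 0.571), with -24.0 points in libraries 1 and 2 and -1.92 in libraries 3 and 4. Without vehicle 1, the difference in the share of epidermal-type cells among gamma-delta T cells was -3.67 points. Without PBMCsec 4 it was -20.1 points. With the mitochondrial limit at 5%, the epidermal-type share was 30.8%, 26.7%, 42.4% and 61.1% in PBMCsec 1 to 4. In vehicle 1 to 4 it was 0%, 40%, 58.1% and 66.7%, where vehicle 1 held 1 gamma-delta T cell. With 4 libraries against 4, a difference in a single share could not pass the adjustment over 4 shares.

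Against alpha-beta T cells, summed per library and compared within libraries, gamma-delta T cells differed in many genes. The test used edgeR's quasi-likelihood fit with library as a block over the 7 libraries with at least 10 cells of each class. Of 3366 genes tested, 648 (19.3%) passed an adjusted p of 0.05, 291 (8.65%) higher and 357 (10.6%) lower in gamma-delta T cells. Levels below are the lowest, median and highest CPM over the 7 libraries, log2 differences carry their standard error, and adjusted p-values are edgeR's with Benjamini-Hochberg adjustment. The genes of the rule were left out of this fit. A gene could pass the filter on low counts through 1 class alone, where it then had to be higher, so the counts of lists describe them and support no direction.

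Genes of both populations stood among the higher ones. Blk (chr14:63372836-63417037, minus strand) lay at 167, 293 and 379 CPM in gamma-delta T cells and 0, 0 and 7.92 in alpha-beta T cells (log2 difference 6.93 ± 0.37, adjusted p = 5.27e-10), and pooled UMIs gave a ratio of 165 (95% exact interval 63.8 to 610, counting error only). 5830411N06Rik lay at 654, 829 and 1455 CPM against 0, 15.6 and 52.8 (5.46 ± 0.29, adjusted p = 5.27e-10), and Tmem176a at 394, 504 and 781 against 7.22, 42.5 and 64.5 (3.65 ± 0.23). In these type 17 genes the classes did not overlap in any library.

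Of the epidermal genes, Fermt2 lay at 119.5, 274 and 742 CPM in gamma-delta T cells against 0, 0 and 11.1 in alpha-beta T cells (6.36 ± 0.43, adjusted p = 3.96e-09). Unc5b, a netrin receptor, lay at 55.8, 82.5 and 176 CPM against 0, 0 and 5.28 and rested on 2 alpha-beta UMIs, which gave a ratio of 116 (95% exact interval 31.4 to 974). Avil lay at 79.1 to 391 CPM against 0 to 47.7 (5.34 ± 0.52, adjusted p = 4.75e-07), and Cntn1, a neural adhesion molecule, at 59.8, 131 and 235 against 0, 3.51 and 15.9 (4.53 ± 0.31, adjusted p = 4.09e-09). Prf1 lay at 143, 352 and 459 CPM against 0, 11.2 and 31.8 (4.18 ± 0.26, adjusted p = 1.85e-09), and Fcer1g at 206, 765 and 1466 against 14.3, 58.2 and 73.9 (3.91 ± 0.26, adjusted p = 3.15e-09). All of these were called in the edgeR fit, with the library sums of the classes apart.

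Trdv4, in the locus of the rule gene Trdc, lay at 70.4, 166 and 372 CPM, with 204 UMIs in gamma-delta and 0 in alpha-beta T cells, at least 152-fold higher over the group. Tcrg-C4 lay at 131, 161 and 234 CPM against 0, 4.47 and 7.01 (5.18 ± 0.31). The gamma constant genes are near-identical copies, so their separate levels are uncertain. Of 20 listed genes of gamma and delta chains and their partners, 4 were in the fit, each of them higher, and as part of the chosen loci they are a description.

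By role, 11 of 17 listed other genes of epidermal T cells passed the filter on low counts, of which 10 were higher and none lower (median log2 difference 1.65, against -0.00 over all genes tested), and of 20 listed other type 17 genes, 17 passed the filter, with 12 higher and 1 lower (median 0.73). Of 17 listed natural killer receptors, 7 passed, of which 4 were higher and none lower (median 1.52), among them Cd244 (3.16 ± 0.28), Klrd1, the CD94 chain (1.65 ± 0.27), and Klrk1, the NKG2D receptor (1.52 ± 0.18). Of 12 listed genes of tissue residency, 7 passed, of which 4 were higher and 1 lower (median 0.59). Itgae lay at 341, 586 and 806 CPM against 121, 168 and 219 (1.71 ± 0.16, adjusted p = 2.26e-07), and Itgb7, its partner chain, differed by 1.11 ± 0.14. Jaml, which was higher in type 17 than in epidermal-type cells, differed by 1.77 ± 0.17, and Ccr6 by 1.94 ± 0.33. Of 5 cytotoxic genes that passed the filter, 3 were higher and 1 lower, of 10 cytokine receptors 3 were higher and 2 lower, of 8 transcription factors 3 were higher and 2 lower, and of 5 cytokines 2 went each way.

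Several co-receptors and costimulatory molecules were lower in gamma-delta T cells. Ctla4 (chr1:60887000-60915832, plus strand) was at 0 in all 7 libraries against 247, 349 and 868 CPM (1184 alpha-beta UMIs), at least 176-fold lower over the group. Cd4 lay at 0, 0 and 11.3 CPM against 228, 249 and 751, a ratio of 90.5 over pooled UMIs (95% exact interval 35.2 to 333). Cd28, the main costimulatory receptor, lay at 0, 22.5 and 71.7 CPM against 333, 477 and 554 (-4.14 ± 0.32). These genes did not overlap between classes in any library.

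Others of the group were Tnfrsf4, the OX40 receptor, at 0, 0 and 23.9 CPM against 169.7, 329.9 and 428 (-5.59 ± 0.36), and Cd40lg, the ligand of CD40, at 0, 5.98 and 8.66 against 73.6, 114 and 227 (-4.60 ± 0.34). Of 15 listed costimulation genes, 12 passed the filter, of which 7 were lower, 2 were higher, among them Jaml, and 3 were not called. Of 9 listed alpha-beta genes, 5 passed, of which 4 were lower and none higher (median -4.53), with Cd5, a damper of receptor signals, at 0, 9.76 and 26.3 CPM against 210.2, 289.9 and 329 (-4.53 ± 0.30) and its relative Cd6 at -5.00 ± 0.30. Trbc1 belonged to neither direction, at 506, 638 and 981 CPM against 525, 644 and 1021 (-0.15 ± 0.15, edgeR adjusted p = 0.60), and Trbc2 was lower (-0.77 ± 0.12, edgeR adjusted p = 8.84e-05).

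Of 6 listed markers of group 2 innate lymphoid cells, 3 passed the filter, of which Gata3 and Il1rl1 were lower and Areg was not called. Gata3, the type 2 master regulator, lay at 79.1, 105 and 137 CPM against 504, 525 and 953 (-2.58 ± 0.17, adjusted p = 2.3e-09). Il1rl1, the IL-33 receptor, had 1 gamma-delta UMI against 484 in alpha-beta T cells, a ratio of 216 (95% exact interval 38.6 to 8560). Foxp3, the factor of regulatory T cells, had 0 gamma-delta UMIs against 160, and Il4 had 0 against 153, and neither was in the fit.

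Of 18 early-response genes, which dissociation can induce, 9 were lower and none higher (median -0.57), among them Dusp1 (-1.40 ± 0.18), Nfkbia (-1.01 ± 0.14), Nr4a1 (-0.98 ± 0.24) and Junb (-0.88 ± 0.15). The median mitochondrial share of UMIs was 5.04%, 3.71%, 5.31% and 3.86% per gamma-delta T cell in PBMCsec 1 to 4 and 5.45%, 4.89% and 5.61% in vehicle 2 to 4. In alpha-beta T cells it was 3.83%, 4.19%, 3.83% and 3.90% in PBMCsec 1 to 4 and 4.47%, 3.70% and 3.52% in vehicle 2 to 4, lower in 5 of the 7 libraries, and its part in these results was not tested. Of 11 listed cell-cycle genes, 5 passed the filter and none was called (median -0.31). Of 18 interferon genes, 4 passed, with 1 higher and 1 lower. With the mitochondrial limit at 5%, which also left 5 libraries and 2282 genes tested, the whole fit called 329 genes. With each cell thinned to 1000 UMIs the fit tested 946 genes and called 191.

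**Figure D4:**
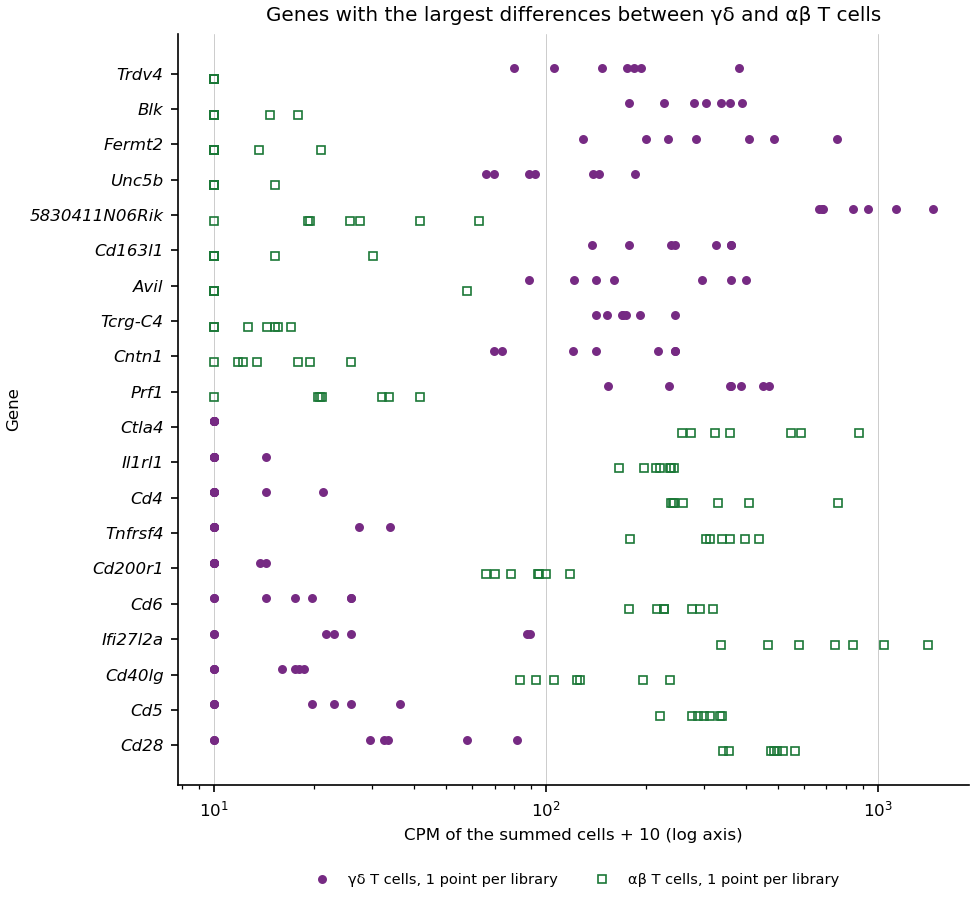
CPM + 10 on a log axis in gamma-delta and alpha-beta T cells of 7 libraries, for the 10 genes furthest apart in each direction, each point a library. Ctla4 was at 0 in every gamma-delta sum, and Blk reached at most 7.92 CPM in alpha-beta sums.

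Transcripts of other cells were present at low and uneven levels. Keratinocyte markers summed to 95.6, 191, 367.5 and 429.6 CPM in gamma-delta T cells of PBMCsec 1 to 4 and to 220.5, 205.6, 2177 and 117 CPM in vehicle 1 to 4. Fibroblast markers reached 4118 CPM in PBMCsec 1, led by Col3a1, and 63 to 229 CPM elsewhere. Myeloid markers reached 3515 CPM in PBMCsec 4, led by Cd74, and 0 to 117 CPM elsewhere, with C1qb at 0 throughout. Of the mast cell and basophil markers, Mcpt4, Tpsb2, Mcpt8 and Ms4a2 were at 0. Of the natural killer cell markers, Klra8 was at 0, Eomes and Ncr1 had 23 UMIs each and Klrb1c had 9, and the list summed to 120, 128, 11.3 and 9.76 CPM in PBMCsec 1 to 4 and 0, 0, 21.6 and 117 CPM in vehicle 1 to 4. Of the B cell markers, Ms4a1 was at 0 and Cd79a had 4 UMIs. Cd79b, a signalling chain of the B cell receptor, was found in 29 of 274 cells (10.6%), among them 26 of the 133 type 17 cells (19.5%) and no epidermal-type cell, against 1.13% of alpha-beta T cells and 0.0448% of keratinocyte-rich cells. Cd79b was higher in type 17 than in epidermal-type cells in all 6 libraries (mean log2 difference 1.63, SD 0.49). The part of these transcripts in the results below was not tested beyond the removal of the marker-rich cells.

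Between PBMCsec and vehicle, no gene of the gamma-delta T cells passed the test with the filter on low counts and no replicate block. edgeR's quasi-likelihood test over 4 PBMCsec and 3 vehicle libraries tested 2285 genes and called 0 (0.00%), with 62 (2.71%) at an unadjusted p under 0.05, 32 higher and 30 lower after PBMCsec. On simulated counts with 1 common spread for all genes, this test recovered 30% of genes changed 2-fold and 75% of those changed 4-fold. Changes of 2-fold could therefore be missed. DESeq2 also called 0, with 15 higher and 14 lower at an unadjusted p under 0.05. Without the filter edgeR called 93 of 13070 genes (76 higher, 17 lower), and with the filter and the replicate block it called 1. Vehicle 1 was left out, and the groups did not overlap for 103 genes (4.51%). None of the lists had a called gene, and 4 of 16 early-response genes had an unadjusted p under 0.05.

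The genes of smallest p in each direction, none of which passed, are given for their values. Ier3, an early-response gene, lay at 131, 87.7, 75.0 and 117 CPM in PBMCsec 1 to 4 and 15.8, 26.0 and 46.9 CPM in vehicle 2 to 4 (log2 difference 1.81 ± 0.48, edgeR adjusted p = 1). Hspa1a, an inducible HSP70 chaperone (chr17:34969190-34972156, minus strand), lay at 1207, 2399.5, 2138 and 2285 CPM against 1154, 1324 and 645 (0.98 ± 0.28). The chaperone Hsp90aa1 lay at 1751, 893, 758 and 391 CPM against 253, 489 and 516 (1.22 ± 0.43). The vehicle libraries lay below those of PBMCsec for Ier3, while the groups overlapped for both chaperones.

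Sdf2l1, a chaperone of the endoplasmic reticulum, lay at 251, 207, 124 and 156 CPM against 31.6, 47.6 and 141 (1.44 ± 0.46), and Arhgap15, a regulator of Rac, differed by 1.04 ± 0.37. In the other direction, Fbl, the nucleolar methyltransferase fibrillarin, lay at 71.7, 95.7, 97.5 and 107 CPM against 174, 182 and 235 (-1.03 ± 0.28). Nucks1, a nuclear DNA-binding protein, differed by -0.81 ± 0.28 and Tcf12, an E protein, by -0.98 ± 0.35. The groups did not overlap for Arhgap15, Fbl, Nucks1 and Tcf12 and overlapped for Sdf2l1, and each had an edgeR adjusted p of 1.

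Apoe and Lgals7, genes of macrophages and keratinocytes, were the remaining genes named for their small p. Apoe lay at 53.8, 39.9, 113 and 107 CPM after PBMCsec and 47.4, 1091 and 46.9 CPM after vehicle (-2.44 ± 0.78), and Lgals7 at 65.7, 31.9, 165 and 166 against 47.4, 1125 and 129 (-2.10 ± 0.73). Vehicle 3, which also had the highest keratinocyte sum, set both. Of its 252 Apoe UMIs, 104 came from 1 cell, and 68 remained without the marker-rich cells. Without vehicle 3 the log2 differences were 0.77 for Apoe and 0.27 for Lgals7.

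**Figure D5:**
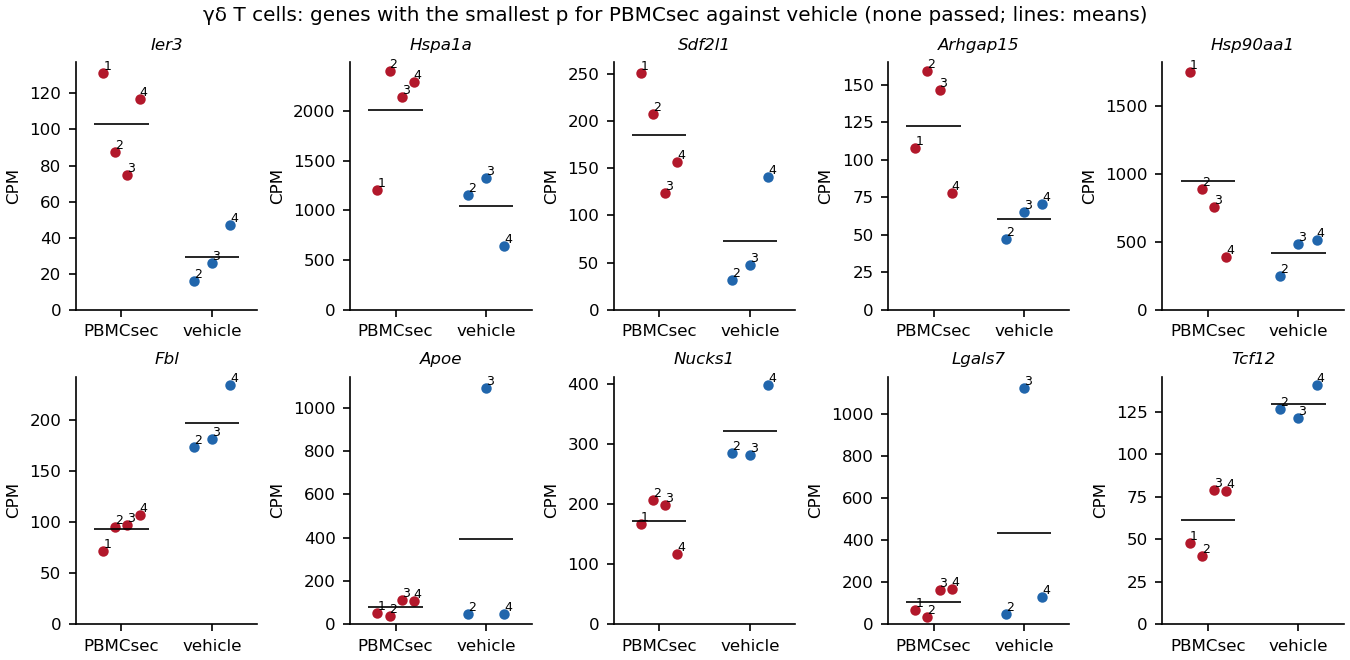
Level of each gene in the gamma-delta T cells of each library (CPM, linear axis) after PBMCsec (4 libraries) and vehicle (3 libraries), with lines at the group means. None of the genes shown passed the adjusted test, and Apoe and Lgals7 were high in vehicle 3 alone.

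Whether PBMCsec acted differently on gamma-delta and alpha-beta T cells was tested by an interaction term with library as a block. Of 4614 genes, 2 (0.0433%) passed. On simulated counts, this test recovered 7% of genes changed 2-fold and 33% of those changed 4-fold. Hspa1a differed by 1.53 ± 0.23 (log2, edgeR adjusted p = 0.0124). In alpha-beta T cells it lay at 911, 1423, 2056 and 1497 CPM after PBMCsec and 1805, 2632 and 1810.5 CPM in vehicle 2 to 4, lower on average after PBMCsec, where in gamma-delta T cells it was higher on average. Its near-identical copy Hspa1b (chr17:34956436-34959238, minus strand) differed by 0.78 ± 0.24 (edgeR adjusted p = 0.998), and reads of the copies may have been split between them. Without vehicle 3 the edgeR adjusted p of Hspa1a was 0.118, without the block it was 1, without PBMCsec 2 0.0534 and without vehicle 4 0.061. At the 5% mitochondrial limit, with vehicle 3 the only vehicle library left, the log2 difference of Hspa1a was 1.52. Its log2 difference stayed between 1.35 and 1.69 over 15 settings. In gamma-delta T cells, 1 cell held 75 of 202 Hspa1a UMIs in PBMCsec 1, 175 of 301 in PBMCsec 2, 141 of 570 in PBMCsec 3 and 143 of 234 in PBMCsec 4. In vehicle 2 to 4, 1 cell held 57 of 73, 44 of 306 and 22 of 55.

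Cxcl2, a neutrophil chemokine, differed by 6.94 ± 1.13 (edgeR adjusted p = 0.0213), from 75, 2, 36 and 0 gamma-delta UMIs in PBMCsec 1 to 4 and 0, 0 and 2 in vehicle 2 to 4. Of the 75 UMIs, 74 came from 1 cell with high marker content of other cell types, and 34 of the 36 from 1 cell. Without the marker-rich cells the edgeR adjusted p of Cxcl2 was 1, without the block it was 1, and DESeq2 gave an adjusted p of 1. With edgeR it was 0.0547 without PBMCsec 1, 0.522 without vehicle 2 and 0.118 without vehicle 3. The log2 difference of Cxcl2 was positive in all 15 settings, between 5.03 (marker-rich cells removed) and 10.9 (without vehicle 4, edgeR adjusted p = 0.000166). It was 10.6 at the 5% mitochondrial limit, with vehicle 3 the only vehicle library left.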

How the data were processed

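Dorsal skin biopsies were dissociated by the authors and sequenced as 10x Genomics 3' libraries. The deposited values are raw UMI counts per gene and barcode called as a cell, per the labels from Cell Ranger 3.0.2 and the mm10 build. The study names another version of this tool. Gene positions were matched in GENCODE M21 (GRCm38) for 30934 of 31053 gene identifiers. Samples were grouped by the label PBMCsec or vehicle.

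The members, gates and 25 gene lists were chosen with earlier results of these data known. Counts were summed per library and class. Gm42418, Gm17056 and Gm26917 (unreliable genes), 8 collagen and keratin genes of free RNA and 6 genes of the rule were left out of the fits. edgeR 4.0.16 under R 4.3.3 (limma 3.58.1) tested the sums with TMM factors, filterByExpr, the quasi-likelihood test and Benjamini-Hochberg adjustment, in libraries with at least 10 cells. Sums of the subsets were compared without a test, as log2 CPM with a prior of 2 counts. Shares were compared by exact permutation tests with scipy 1.17.1 in Python 3.11.15. Alternatives were DESeq2 1.42.0, its size factors, no filter, other gates and limits, a replicate block, thinning to 1000 UMIs, removal of marker-rich cells and leaving out each library. Scripts were tested on simulated data.

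Genes were named as the up to 6 most abundant members of each list, all gate genes, the 10 largest differences in each direction between classes and between subsets among genes moving the same way in every library, and the 5 smallest p-values in each direction between treatments where none was called. Promoters were read from RefSeq. Some genes of the gates and lists are not reported here.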

Additional observations from a re-analysis of the deposited data

Results flagged for a closer look

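In groups of 4 libraries, the distance of the highest or lowest library from its neighbour was compared with Dixon's limit. The vehicle libraries were checked for the 4 shares only. Levels of genes and sums of marker lists were checked in the PBMCsec libraries alone, so the flags do not compare the treatments. Of 56 groups, 6 passed, where chance alone gives about 1 in 20. Each was a value among the 4 PBMCsec libraries. Among these, PBMCsec 3 had the highest share of gamma-delta T cells among cells with a CD3 UMI (27.1%, the other PBMCsec libraries 16.5% to 17.9%). PBMCsec 4 had the highest share of epidermal-type cells among the PBMCsec libraries (55.6%, the other PBMCsec libraries 25.3% to 28.6%), and among them also the highest Avil in gamma-delta T cells (391 CPM) and Tmem176a in type 17 cells (1892 CPM). Fibroblast markers in gamma-delta T cells were high in PBMCsec 1 (4118 CPM), and myeloid markers in PBMCsec 4 (3515 CPM).

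The interaction test gave a difference of the PBMCsec effect between gamma-delta and alpha-beta T cells for Cxcl2 (log2 6.94 ± 1.13) and Hspa1a (log2 1.53 ± 0.23). The UMIs of Cxcl2 came mainly from 1 cell each in PBMCsec 1 and 3. For Hspa1a, the PBMCsec mean was above that of vehicle in gamma-delta T cells and below it in alpha-beta T cells. In gamma-delta T cells, 1 cell held 175 of 301 Hspa1a UMIs in PBMCsec 2 and 143 of 234 in PBMCsec 4.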

How the results depend on the processing

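The share of gamma-delta T cells among T cells changed sign when marker-rich cells were removed (-0.361 points), at the 5% mitochondrial limit without vehicle 1 (-0.823 points) and after thinning without vehicle 1 (-4.79 points) and ranged from -4.58 (without vehicle 1) to 5.78 points (without vehicle 3) when libraries were left out. The share of type 17 cells among gamma-delta T cells was -4.00 points at the 5% mitochondrial limit (1 cell left in vehicle 1, 11.8 points without that library), -1.64 points after thinning without vehicle 1 (3.30 with it) and -31.6 points with Trbc1 and Trbc2 also at 0, which left 33 cells, none in vehicle 1 and 2 and 1 each in PBMCsec 2 and vehicle 4. The share of epidermal-type cells among gamma-delta T cells was 25.4 points with Trbc1 and Trbc2 at 0. It was 3.75 points after thinning, which left 1 unassigned cell in vehicle 1 (-5.70 without that library). Its values by library at the 5% mitochondrial limit are given with the result above. The alternatives without vehicle 1 at the 5% limit and after thinning were chosen after seeing the data. No share passed its test in these, where the test with Trbc1 and Trbc2 at 0 (4 against 2 libraries) cannot give an exact p below 0.133. The count of genes differing between gamma-delta and alpha-beta T cells was 1240 without a filter, 442 with DESeq2 (211 higher, 231 lower) and 477 to 604 with libraries left out. It was 191 after thinning (946 genes tested) and 329 at the 5% limit, which also left 5 libraries and 2282 genes tested. Genes changed by PBMCsec in gamma-delta T cells were 93 without a filter on low counts (76 higher, 17 lower) and 0 with each library left out. The difference of the PBMCsec effect between gamma-delta and alpha-beta T cells was called for 20 genes without a filter, 1 with DESeq2 and 1 without marker-rich cells. It was called for 0 to 5 with libraries left out (0 without vehicle 3, 5 without PBMCsec 3). No count is given at the 5% limit, which left vehicle 3 as the only vehicle library in this fit. Apoe lay between -2.88 (without vehicle 4) and 0.77 (without vehicle 3), and Lgals7 between -2.53 (without vehicle 2) and 0.27 (without vehicle 3). Apart from the vehicle 3 values, the cause of these changes was not tested.

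Whether library numbers shared between treatments pair the libraries is not stated by the labels. Deviations of equal numbers correlated at 0.0536, 0.0548 and 0.296 over 2285 genes, without vehicle 1, and those of unequal numbers between -0.304 and 0.218. The shares of gamma-delta T cells among kept cells and of type 17 cells among gamma-delta T cells were higher after PBMCsec in every pair of equal number. With the replicate block, 1 gene was changed by PBMCsec (Pclaf, log2 -4.93 ± 0.70, edgeR adjusted p = 0.00521, outside the naming rule). As pairs in the replicate block, exact sign-flip tests gave p = 0.125 for the share of gamma-delta T cells among kept cells, 0.875 for the share of gamma-delta T cells among T cells, 0.125 for the share of type 17 cells among gamma-delta T cells and 0.5 for the share of epidermal-type cells among gamma-delta T cells, where 0.125 is the smallest p of 4 pairs. Without the block the class count was 471 and that of the interaction 0. Of the checks on genes named between classes, 933 kept their side of the threshold, 85 lost it and 0 turned. These genes were called in the main fit, apart from Trbc1. A gene was checked only in settings whose fit still held it. After thinning, 38 genes kept their side and 6 lost it, against 68 and 2 with RLE size factors. Of the checks on genes named between treatments, 135 were the same, 6 were stronger and 2 were reversed. Small cell numbers limit every value of vehicle 1 and 2, and a minimum of 20 cells left the same libraries as leaving out vehicle 2.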

Other observations

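Further genes set gamma-delta apart from alpha-beta T cells in the edgeR fit. Igf1r, the IGF-1 receptor, lay at 95.7, 155 and 210.0 CPM (lowest, median and highest of 7 libraries) against 2.23, 15.8 and 21.7 (log2 3.49 ± 0.28), and Aqp3, a water and glycerol channel, at 47.8, 71.7 and 142 against 3.51, 10.6 and 57.0 (2.42 ± 0.40). Ahr, the aryl hydrocarbon receptor that maintains epidermal T cells, differed by 1.15 ± 0.23 and Tnf by 1.06 ± 0.24. Ifi27l2a, an interferon-induced gene, was lower, at 0, 13.0 and 79.7 CPM against 327, 731 and 1405 (-4.86 ± 0.30), as were Cd27, a costimulatory receptor (-2.74 ± 0.42), and Cxcr3, a receptor of interferon-induced chemokines (-2.66 ± 0.35). Klrg1 had 0 gamma-delta UMIs against 161, and Ccl1 0 against 220.

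Areg, the growth factor amphiregulin, lay at 257, 167, 390 and 0 CPM in gamma-delta T cells of PBMCsec 1 to 4 and 15.8, 86.6 and 23.5 CPM in vehicle 2 to 4 (log2 2.04 ± 0.78, edgeR adjusted p = 1). The groups overlapped through PBMCsec 4. In PBMCsec 1 to 3, 1 cell held 20 of 43, 21 of 21 and 34 of 104 Areg UMIs. In vehicle 2 to 4, 1 cell held 1 of 1, 7 of 20 and 1 of 2.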
